A study of Mus musculus with 23 samples.

Results

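The translation initiation and elongation factors were taken as all array probes whose gene symbol begins with EIF followed by a digit from 1 to 6 or with EEF followed by 1 or 2. The rule used names only, and it found 117 probes for 68 symbols among the 45281 probes and 30854 symbols of the array. The RNA came from the striatum of BacTRAP mice (C57BL/6J/Swiss-Webster, 71 days old), in which the ribosomal protein L10a fused to EGFP is made from a bacterial artificial chromosome, so that ribosomes of 1 cell type and the mRNA on them can be pulled down. In the DRD1A line (spelled DRD1 in the sample labels) the promoter drives the transgene in direct pathway medium spiny neurons (MSNs). In the DRD2 line it drives the transgene in indirect pathway MSNs. The study's discussion adds cholinergic interneurons, citing earlier work, and calls their share in its own samples unknown. All mice had a unilateral 6-OHDA lesion of the dopamine fibres at 35 days of age, and the striatum used was that of the lesioned side. All received LDOPA methyl ester with benserazide (6 and 15 mg/kg) 40 min before sacrifice on day 22. The chronic LDOPA groups had received the drug for the preceding 21 days, and the acute LDOPA groups had received vehicle. The arrays numbered 7 for DRD1A acute LDOPA, 8 for DRD1A chronic LDOPA, 4 for DRD2 acute LDOPA and 4 for DRD2 chronic LDOPA, each from the striatum of a single mouse. These sizes follow the sample labels; the study's text gives those of DRD1A chronic and DRD2 acute LDOPA differently, and which is right could not be settled for the treatment. No unlesioned group and no group without LDOPA was analysed here.

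Arrays are named below by their BeadChip (1 to 4) and position (A to F). BeadChip 1 held DRD1A acute LDOPA arrays 1B, 1C, 1E and 1F and DRD2 chronic LDOPA arrays 1A and 1D. It held no array of DRD1A chronic or DRD2 acute LDOPA, so no comparison had both its groups there. For those arrays an effect of the BeadChip cannot be told apart from the difference compared. Arrays 1D and 3A of the DRD2 chronic LDOPA group correlated at r = 0.990 over the probes tested, where the next closest pair of arrays reached 0.928. They may be 1 library measured again, so their mean was counted as 1 sample and 22 samples entered every test. A detection p-value under 0.05 was found for 29 to 38.5% of all probes on each array, and for 70 to 91 of the 117 factor probes. It was lowest in DRD2 acute LDOPA, at 29 to 33.6% of all probes and 70 to 80 factor probes, below the 34.2 to 37.1% of DRD2 chronic LDOPA, and its part in the comparisons with that group was not tested. The labelled lines were checked on their defining genes. The DRD2 probe lay at 9.95 to 11.46 in the DRD2 samples and at 7.11 to 7.76 in the DRD1A samples on the log2 scale, and the DRD1A probe averaged 1.72 higher in DRD1A after acute LDOPA (adjusted p = 0.132). Of the cholinergic markers, CHAT was detected on at most 4 arrays with any of its probes, SLC18A3 on 1, LHX8 on 4 and SLC5A7 on 6 of the 23. In bulk material of this kind fewer cells of a type and less RNA per cell cannot be told apart.

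Translation begins when the initiator tRNA, carried by eIF2 with GTP, joins the small ribosomal subunit together with eIF3 and the scanning factors eIF1 and eIF1A. The cap binding complex eIF4F (eIF4E, eIF4G and the helicase eIF4A) brings in the mRNA, and eIF5 and eIF5B complete start codon recognition and subunit joining. Elongation is carried by eEF1A, which delivers tRNAs, by its exchange factors of the eEF1B complex, and by eEF2, which moves the ribosome along. Well known regulatory inputs are mTORC1, which acts through the 4E-BP inhibitors of eIF4E, and the kinases of eIF2 alpha, whose phosphorylation blocks the exchange factor eIF2B. Many of the elongation factor and eIF3 mRNAs begin with a 5′ terminal oligopyrimidine (TOP) tract, a C followed by several pyrimidines, which makes their loading onto ribosomes depend on mTORC1. The measurements here are of ribosome-associated mRNA, which is why the starts of some of these genes are shown.

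The 7 windows below run from 40 bases before to 20 bases from the annotated transcript start (RefSeq, GRCm38.p6, coding strand), and capitals mark a C followed by at least 4 pyrimidines that begins within 5 bases of the start, or the cAMP response element TGACGTCA.
Eef1a1 (chr9:78481705-78481764, minus strand): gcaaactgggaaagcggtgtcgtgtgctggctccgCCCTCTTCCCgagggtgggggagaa
Eef1a2 (chr2:181156996-181157055, minus strand): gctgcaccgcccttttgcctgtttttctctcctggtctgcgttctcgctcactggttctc
Eef2 (chr10:81176591-81176650, plus strand): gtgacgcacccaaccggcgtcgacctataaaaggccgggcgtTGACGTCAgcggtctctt
Eif3f (chr7:108934375-108934434, plus strand): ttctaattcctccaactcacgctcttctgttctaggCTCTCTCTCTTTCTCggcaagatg
Eif3l (chr15:79075183-79075242, plus strand): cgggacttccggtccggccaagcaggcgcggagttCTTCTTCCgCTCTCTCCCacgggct
Eif2s3x (chrX:94212632-94212691, minus strand): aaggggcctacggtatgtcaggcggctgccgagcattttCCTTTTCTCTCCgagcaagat
Eif2s3y (chrY:1010555-1010614, plus strand): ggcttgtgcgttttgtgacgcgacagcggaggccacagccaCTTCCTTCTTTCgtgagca
The windows of the paralogous pair Eef1a1 and Eef1a2 differ in that only the first holds such a tract at this place. Eef2, itself a known TOP mRNA, holds none within 5 bases of its annotated start and carries the cAMP response element 2 bases after it. The windows of Eef1b2 and Eif5, which are not shown, hold no such tract at this place either. Eef1b2 is also counted below among the known TOP mRNAs.

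Promoter windows of 300 bases, which span the start of each transcript, were present for 47 of the factor genes (62 windows). A pyrimidine tract within 5 bases of the start occurred in 14 of these genes and in 25.8% of their windows, against 18.3% of all 32851 windows. The palindromic E-box CACGTG, searched on both strands, was found in the windows of 12 genes, among them Eef2, Eef2k, Eif4e, Eif4g1, Eif4a1 and Eif5a, and in 22.6% of the factor windows against 7.15% of all. The cAMP response element TGACGTCA was found for Eef2 alone among the factor genes, in 1.61% of their windows against 1.79% of all. These matches describe the letters in the windows and were not tested against any measurement. Of the 117 probes, 107 matched a RefSeq gene by accession or gene ID, for 60 genes in all. Array symbols that have since been replaced include EIF2C1 to EIF2C4 (Argonautes Ago1 to Ago4), EIF3S10 (Eif3a), EIF3S5 (Eif3f), EIF3S4 (Eif3g), EIF3S6 (Eif3e), EIF3EIP (Eif3l) and EIF4EL3 (Eif4e2).

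The factors were well covered. Testing required that a probe lie above the 20th percentile of signals throughout at least 1 of the groups, and 106 of the 117 factor probes (90.6%), for 64 symbols, met it, against 71.2% of all probes. Detection on all 23 arrays was reached by 46 factor probes (39.3%) for 32 symbols, against 14% of all probes. It was reached by 13 of 19 probes of the elongation factors, 14 of 23 of eIF3 and 10 of 25 of the eIF4 factors. None of the 6 probes of the eIF2 alpha kinases, none of the 8 Argonaute probes and none of the 5 probes of the 4E-BPs and EIF4ENIF1 was detected on every array. Among eIF2 itself, the probe of the alpha subunit EIF2S1 was detected on 0 of 23 arrays and that of the X-linked gamma subunit EIF2S3X on 17. The probe of EEF2K, the kinase that inactivates eEF2, was detected on 2 arrays and was not tested. EIF4E1B, an oocyte form of eIF4E, was detected on 0 arrays with each of its 3 probes. The 11 probes that were not tested were 1 each of EEF1D, EEF2K, EIF2AK4, EIF2C4, EIF2S1, EIF2S3Y, EIF3S2, EIF4A2 and EIF4EBP3 and 2 of EIF4E1B, each detected on at most 5 arrays.

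**Figure D1:**
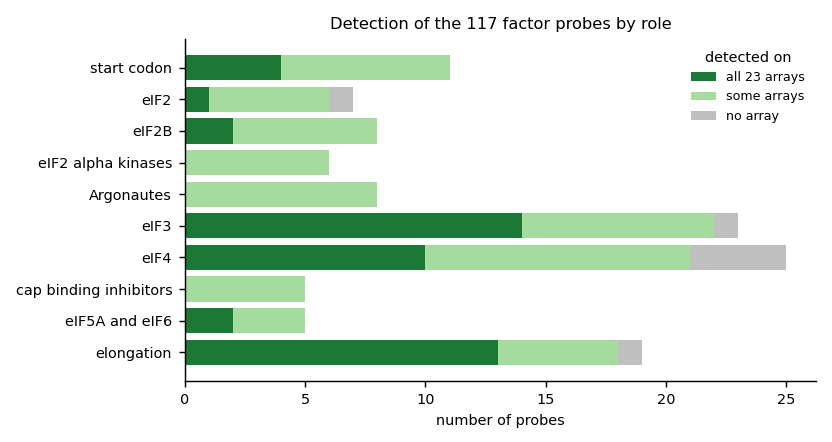
Number of probes (horizontal axis) in each of 10 role groups of the factors (vertical axis), coloured by whether the detection p-value was under 0.05 on all 23 arrays, on some or on none. Elongation factors (13 of 19 probes) and eIF3 (14 of 23) were the groups most often detected throughout, and the eIF2 alpha kinases, Argonautes and cap binding inhibitors had no such probe.

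The 4 groups were first compared together, to ask whether any factor differed among them. On quantile normalized log2 signals, limma called 0 of the 106 factor probes at an adjusted p under 0.05 in the F test over the 4 groups, where 0.295% of all 32255 probes tested were called. Without adjustment, 21 factor probes (19.8%) had p under 0.05, against 10% of all probes. The factor probes were also detected on every array more often than all probes (39.3% against 14%). The share over detected probes alone was not taken for this test. The lowest adjusted p of the F test was 0.0532, for EEF1A2 probe 3180086, and the next was 0.0794, for EEF1B2 probe 5050056. In the pairwise comparisons 0 factor probes were called in any of the 4, nor in the interaction of line and treatment. The share of all probes called was 0.158% for DRD1A against DRD2 after acute LDOPA, 0.0279% after chronic LDOPA, 0.0341% for chronic against acute LDOPA in DRD1A, 0.0031% in DRD2 and 0% for the interaction. The median half-width of a 95% confidence interval for a factor probe was 0.35 on the log2 scale for chronic against acute LDOPA in DRD1A and 0.52 in DRD2. Larger differences than these also went uncalled. Since no factor was called, all differences below are given as values. They are log2 differences, DRD1A minus DRD2 or chronic minus acute.

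**Figure D2:**
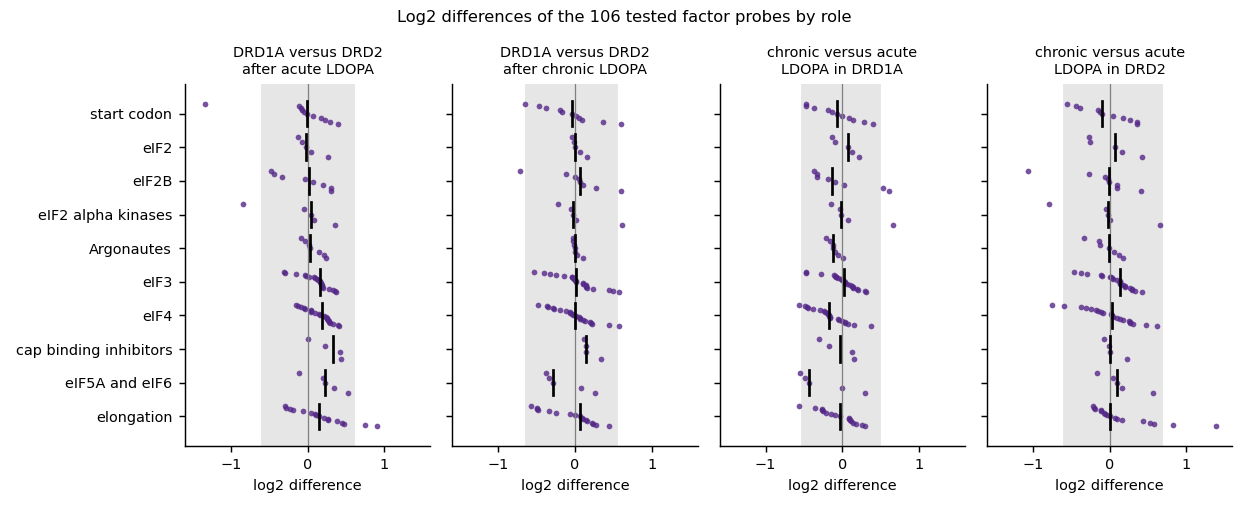
Log2 difference (horizontal axis) of each of the 106 tested factor probes, as points, in 10 role groups (vertical axis), for the 4 comparisons; black bars are group medians and the grey band holds the central 95% of all 32255 probes. Most points lay inside the band, and those outside it included EIF5 at -1.34 and EEF1B2 at 0.91 after acute LDOPA and EEF1B2 at 1.38 in DRD2.

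DRD1A was compared with DRD2 after acute LDOPA to ask how the cell types differed under a first exposure. The 106 factor probes had a median log2 difference of 0.14, against -0.01 over all probes tested, and 73 of them were above 0. Without the DRD2 array 2F the factor median was 0.08. Over probes detected on all arrays the medians were 0.19 for the 46 factor probes and 0.03 for all 6333 such probes. At an unadjusted p under 0.05, 9 factor probes (8.49%) were higher in DRD1A, against 3.76% of all probes, and 1 was lower, against 5.34%. Over probes detected on all arrays these shares were 15.2% of the factors against 9.55% of all for higher, and 0% against 5.83% for lower. The samples of both groups did not overlap for 3 factor probes (2.83%), against 1.49% of all. The median was 0.16 over the 22 eIF3 probes, 17 of them above 0, and 0.19 over the 22 eIF4 probes, again 17 above 0. It was 0.15 over the 17 elongation factor probes and -0.01 over the 11 probes of the start codon factors. Within the BeadChips that held both groups the factor medians were 0.15, 0.11 and 0.07.

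Among the elongation factors in this comparison, the highest value was that of a subunit of the eEF1B complex. For EEF1B2, the exchange factor subunit beta, probe 5050056 read 7.89, 7.38, 7.26 and 7.15 on the 4 DRD2 acute LDOPA arrays and ranged from 7.98 to 9.14, with a median of 8.26, over the 7 DRD1A arrays. The groups did not overlap, although the probe was detected on 2 of the 4 DRD2 arrays only. DRD1A exceeded DRD2 by 0.91 (95% confidence interval 0.43 to 1.38, unadjusted p = 0.000755, adjusted p = 0.128). The probe of highest signal for the same gene, 7570484, differed by 0.47 (0.16 to 0.79, adjusted p = 0.282), and the third, 5310368, by 0.11 (-0.46 to 0.69). EEF1D, the delta subunit of the complex, differed by 0.75 with probe 4050603 (SE 0.29, adjusted p = 0.419) and EEF1G, the gamma subunit, by 0.38 (SE 0.21, adjusted p = 0.634). Without the DRD2 acute LDOPA array 2F, where EEF1G was lowest at 9.70, its value was 0.06 (adjusted p = 0.958).

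EEF1A1, the widely expressed form of the tRNA carrier, gave 0.21 with its probe of highest signal (-0.12 to 0.54, adjusted p = 0.744). EEF1A2, the form of mature neurons and muscle, gave -0.19 with probe 3180086. EEF2, the translocase, gave -0.28 (SE 0.23), -0.30 and -0.23 with its 3 probes, so it was measured on the other side of 0 from EEF1B2 and EEF1D.

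EIF5, the GTPase activator of eIF2, had the smallest p of the comparison, with probe 5490114. Its signal was 8.14, 7.98, 9.68 and 9.04 on the DRD2 acute LDOPA arrays and 7.13 to 7.78 (median 7.31) on the DRD1A acute LDOPA arrays, with no overlap. The probe was detected on 5 of the 7 DRD1A arrays and on all 4 DRD2 arrays. DRD1A minus DRD2 came to -1.34 (-1.97 to -0.71, unadjusted p = 0.000266, adjusted p = 0.0882). Within BeadChips 2, 3 and 4 it was -0.54, -2.25 and -1.75. The other probes of EIF5 did not share this value: 5720468, the probe of highest signal, gave -0.09 (-0.56 to 0.38) and 3830315 gave -0.07 (-0.76 to 0.63). The difference thus belonged to 1 of 3 probes. The array annotation marks probe 5490114 as isoform specific (type I) and probe 5720468 as covering all isoforms (type A). Whether a difference between isoforms underlies these values was not tested.

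EIF5A, which helps ribosomes through difficult peptide bonds, lay at 11.31, 10.94, 11.07 and 11.12 on the DRD2 acute LDOPA arrays and at 11.16 to 12.04 (median 11.68) on the DRD1A acute LDOPA arrays with probe 6040086. Only the lowest DRD1A array lay within the DRD2 range. The log2 difference was 0.53 (0.21 to 0.85, adjusted p = 0.223), and it was 0.56, 0.65 and 0.92 within BeadChips 2, 3 and 4. EIF3I, a WD repeat subunit of eIF3, read 12.58, 12.51, 12.52 and 13.06 in DRD2 and 12.89 to 13.14 (median 13.01) in DRD1A with probe 620639. Its log2 difference was 0.33 (0.12 to 0.54, adjusted p = 0.25). The DRD2 array 4E stood with the DRD1A samples, and without it the difference was 0.47 with an adjusted p of 0.0398, the only call that leaving out 1 array produced in the pairwise comparisons.

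After chronic LDOPA the lines were compared in the same way. The factor median was 0.01, equal to that of all probes at 0.01, with 58 of 106 probes above 0. At an unadjusted p under 0.05, 4 probes were higher in DRD1A (3.77% against 2.47% of all) and 6 were lower (5.66% against 3.67%). Over probes detected on all arrays, 6.52% of the factors and 6.19% of all were higher, and 6.52% and 5.61% were lower. The samples of both groups did not overlap for 2 factor probes (1.89%, against 1.72% of all). EEF1A2 probe 3180086 was one of them, with 12.61, 12.61, 12.78 and 12.87 on the DRD2 chronic LDOPA arrays 1A, 1D, 3A and 4A, and 11.86 to 12.38 (median 12.21) in DRD1A. Its log2 difference was -0.57 (-0.93 to -0.21, unadjusted p = 0.00325, adjusted p = 0.409), and -0.59 and -0.80 within BeadChips 3 and 4. With median centering it was -0.28 (adjusted p = 0.852), and the other EEF1A2 probes gave 0.09 (1300601) and 0.28 (4810646) under quantile normalization. The other was EIF3K, a small subunit at the edge of eIF3, with 10.43, 11.10, 10.77 and 10.86 in DRD2 and 10.95 to 11.36 (median 11.21) in DRD1A. The groups separated for EIF3K only with arrays 1D and 3A averaged, since 1D alone lay among the DRD1A values. The difference was 0.44 (0.09 to 0.79, adjusted p = 0.637), beside 0.36 (0.04 to 0.68) for the same probe after acute LDOPA.

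EIF3H, an eIF3 subunit with a TOP mRNA, gave -0.54 between the lines after chronic LDOPA (-0.97 to -0.10, adjusted p = 0.66), and EIF5B, the GTPase of subunit joining, gave -0.47 with probe 940044 (-0.86 to -0.07, adjusted p = 0.695) and -0.65 with probe 7050309. The third EIF5B probe, 6420064, lay at 7.03 to 7.78 in DRD1A and at 7.04 to 7.26 in DRD2 after chronic LDOPA. EIF1B, a paralog of the scanning factor eIF1, gave 0.36 (0.03 to 0.70), near its 0.40 after acute LDOPA. In the eIF4F core EIF4E gave -0.05 and -0.07 after acute and chronic LDOPA, EIF4A2 probe 7050300 gave 0.15 and 0.06, and EIF4A1 gave 0.33 and 0.07, each with an interval that contained 0. With median centering the chronic values of EIF4E, EIF4A2 and EIF4A1 were 0.18, 0.40 and 0.32.

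The effect of prior treatment was asked within each line. In DRD1A, chronic against acute LDOPA, the factor median was -0.06, against 0.00 over all probes, with 41 of 106 probes above 0. At an unadjusted p under 0.05, 3 probes were higher (2.83% against 3.69% of all) and 8 were lower (7.55% against 4.11%), and the samples were apart for 0 probes, where this held for 0.136% of all. Over probes detected on all arrays, 10.9% of the factor probes and 9.1% of all were lower at this threshold. The medians were -0.18 over 22 eIF4 probes, with 17 below 0, and 0.03 over 22 eIF3 probes. These directions depended on the scaling: with arrays centred on their medians in place of quantile normalization, the factor median became 0.12, against 0.02 over all probes tested. Over probes detected on all arrays it became 0.36 for the factors, against 0.28 for all such probes.

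EEF1A2 probe 3180086 had the smallest p in DRD1A. On the acute LDOPA arrays it ranged from 12.15 to 13.06 (median 12.85) and on the chronic LDOPA arrays from 11.86 to 12.38 (median 12.21), so that 6 of 7 acute arrays lay above every chronic one and array 2D lay among them. The log2 difference was -0.57 (-0.84 to -0.30, unadjusted p = 0.000301, adjusted p = 0.151). It was 0.09, -0.84 and -0.34 within BeadChips 2, 3 and 4, with 1 acute LDOPA array on each of these. In DRD2 the same probe read 13.14, 12.85, 13.01 and 12.68 after acute and 12.61 to 12.87 after chronic LDOPA, a difference of -0.19. With arrays centred on their medians the values of probe 3180086 were -0.05 in DRD1A and 0.04 in DRD2. The other probes of EEF1A2 gave 0.10 (1300601) and -0.10 (4810646) in DRD1A. Across the 22 samples probe 3180086 correlated at r = 0.03 with each of them, while those probes correlated at 0.64 with each other.

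**Figure D3:**
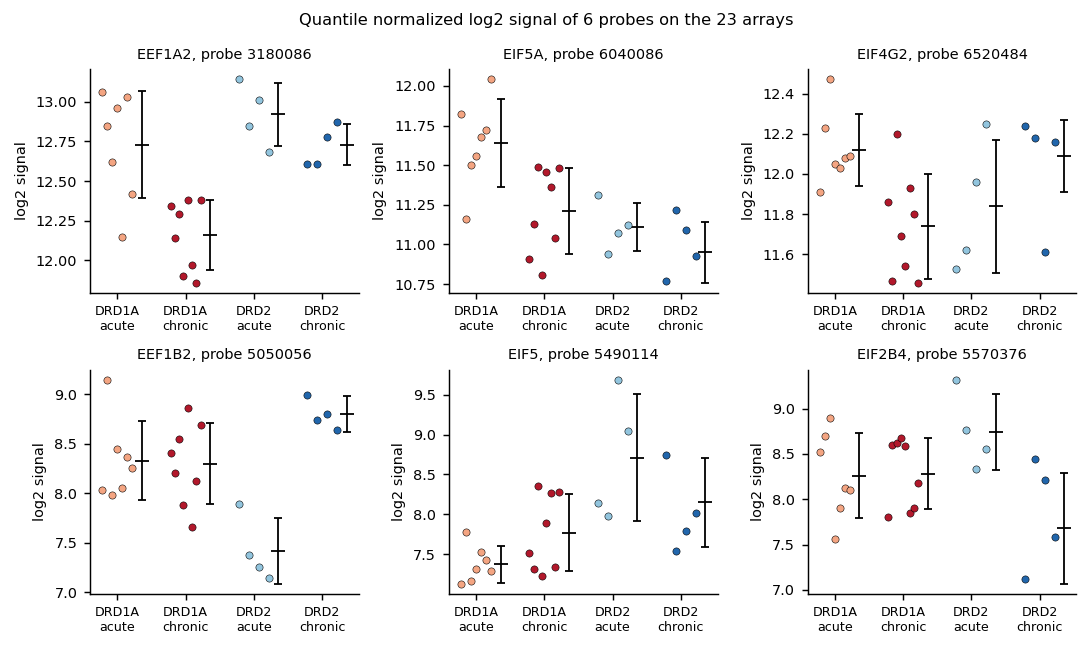
Quantile normalized log2 signal (vertical axis) of 6 factor probes on each of the 23 arrays (points) in the 4 groups (horizontal axis), with the mean and SD over samples as bars beside them. EEF1A2 lay at 11.86 to 12.38 in DRD1A chronic LDOPA, below all DRD2 arrays. EEF1B2 was lowest on average in DRD2 acute LDOPA, at 7.15 to 7.89, with DRD1A chronic LDOPA arrays 3D and 4C inside that range. EIF5 was highest on average in DRD2 acute LDOPA, at 7.98 to 9.68. Arrays of DRD2 chronic LDOPA and of DRD1A chronic LDOPA (3C, 4C and 4F) lay inside that range.

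EIF5A followed with 11.16 to 12.04 (median 11.68) after acute and 10.81 to 11.49 (median 11.24) after chronic LDOPA in DRD1A, overlapping groups with a log2 difference of -0.43 (-0.69 to -0.17, adjusted p = 0.322). Within BeadChips 2, 3 and 4 the difference was -0.66, -0.47 and -0.75. Its other probes gave -0.55 (2370446) and -0.49 (4230563), so all 3 lay below 0. Probe 2370446 matched no RefSeq gene, and the F test over the 4 groups gave these probes unadjusted p of 0.565 and 0.594. EIF4A2, the helicase form that predominates in brain, differed by -0.45 with probe 4850747 (-0.75 to -0.15, adjusted p = 0.392), but by -0.06 (-0.27 to 0.16) with probe 7050300, the one of highest signal. EIF4G2, a scaffold that lacks the eIF4E binding region, had its highest signal with probe 6520484. That probe lay at 11.91 to 12.47 (median 12.08) after acute and 11.46 to 12.20 (median 11.75) after chronic LDOPA. Its log2 difference was -0.38 (-0.63 to -0.12, adjusted p = 0.392), and -0.36, -0.27 and -0.36 within the BeadChips. EIF4G2 probe 2810156, detected on all 23 arrays, averaged 10.05 after acute and 10.01 after chronic LDOPA in DRD1A. Probe 1570333, detected on 15 arrays, averaged 7.67 and 7.49. With median centering the values of EIF5A probe 6040086, EIF4A2 probe 4850747 and EIF4G2 probe 6520484 became 0.07, 0.03 and 0.12. These lay on the other side of 0. EIF5A probe 2370446 remained below 0 there, at -0.38.

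Among the remaining factors in DRD1A, EIF3H gave -0.48 (-0.82 to -0.15, adjusted p = 0.399), EIF4B, a cofactor of the helicase, gave -0.57 with probe 6550133 and -0.20 with the probe of highest signal, and EIF5B probe 940044 gave -0.37. EEF2 gave -0.27, -0.26 and -0.25 with its 3 probes, which correlated at 0.73 to 0.96 with each other, and each interval contained 0. Median centering turned the value of EEF2 probe 2350484 to 0.23, that of EIF4B probe 670092 to 0.02 and that of EIF4A2 probe 7050300 to 0.55. EIF2B5, the catalytic subunit of the eIF2 exchange factor, gave 0.61 with probe 1450468 (0.01 to 1.20, adjusted p = 0.632) and 0.53 with probe 2370187. The remaining EIF2B5 probe, 450521, did not share this rise. It was detected on 16 arrays and averaged 7.63 after acute and 7.54 after chronic LDOPA in DRD1A.

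Of the kinases of eIF2 alpha, EIF2AK1 was detected on 22 of 23 arrays and the others on 8 or fewer. EIF2AK2, the interferon-induced kinase PKR, was detected on 0 of 7 DRD1A acute LDOPA arrays (7.01 to 7.21) and on 6 of 8 chronic ones (7.03 to 9.12, median 7.71). The log2 difference was 0.66 (-0.21 to 1.53, adjusted p = 0.739). In DRD2 it was detected on 1 array in each group, and the acute LDOPA array 4E stood alone at 10.56. EIF2AK1, the haem-regulated kinase, gave 0.07 in DRD1A and 0.65 in DRD2 (-0.25 to 1.55). Both probes of EIF2AK3 (PERK) were detected on 3 arrays each, and those of EIF2AK4 (GCN2) on 5 and 1.

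In DRD2, chronic against acute LDOPA, 3 samples were compared with 4. The factor median was 0.03, against -0.01 over all probes, and 61 of 106 probes were above 0. At an unadjusted p under 0.05, 6 probes were higher (5.66% against 2.97% of all) and 1 was lower (0.943% against 3.31%). Over probes detected on all arrays 10.9% of the factors and 4.67% of all were higher. The samples did not overlap for 9 factor probes (8.49%), against 6.9% of all. EEF1B2 probe 5050056 had the smallest p of this comparison, with 8.99, 8.74, 8.80 and 8.64 on the chronic LDOPA arrays 1A, 1D, 3A and 4A, all above the acute range of 7.15 to 7.89. Chronic minus acute was 1.38 (0.80 to 1.96, unadjusted p = 7.6e-05, adjusted p = 0.272), and 1.54 and 1.49 within BeadChips 3 and 4. Between the lines after chronic LDOPA it gave -0.50 (-1.02 to 0.01), on the other side of 0 from the acute comparison. In DRD1A the same probe gave -0.03, and the interaction was -1.41 (-2.11 to -0.71, unadjusted p = 0.000449, adjusted p = 0.517). The probe of highest signal, 7570484, gave 0.43 (0.05 to 0.81, adjusted p = 0.738) and the third, 5310368, gave -0.07 (-0.77 to 0.63).

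**Figure D4:**
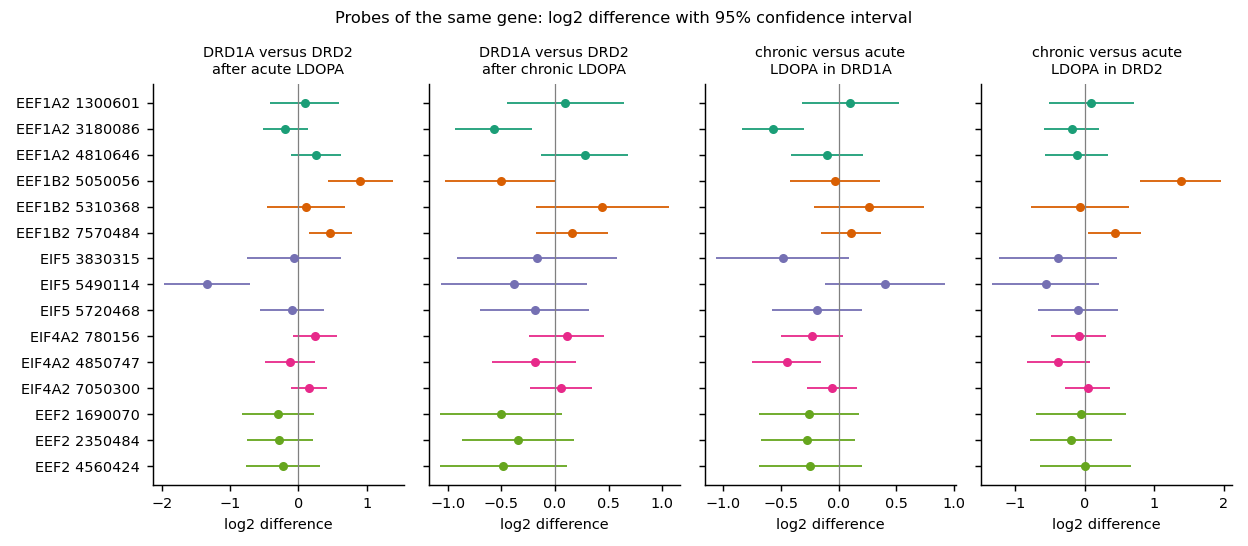
Log2 difference with its 95% confidence interval (horizontal axis) for the 15 tested probes of EEF1A2, EEF1B2, EIF5, EIF4A2 and EEF2 (vertical axis), in 4 comparisons. The 3 probes of EEF2 lay close together, with -0.27, -0.26 and -0.25 in DRD1A, whereas EIF5 gave -1.34 with 1 probe and -0.09 and -0.07 with the others after acute LDOPA.

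Of the 17 elongation factor probes in DRD2, 9 lay above 0 and 8 below, with a median of 0.01, and EEF2 probe 2350484 gave -0.20. EEF1A1 probe 4640142 read 9.64, 9.20, 9.53 and 9.55 after acute and 9.78, 10.46, 10.22 and 10.06 after chronic LDOPA, with no overlap, a log2 difference of 0.58 (0.17 to 0.98, adjusted p = 0.66). This probe matched no RefSeq transcript, and the EEF1A1 probes that did gave -0.11 and -0.22. EEF1D gave 0.83 (0.10 to 1.56, adjusted p = 0.738), with chronic LDOPA arrays at 10.26, 11.27, 11.49 and 9.77 that overlapped the acute range of 9.14 to 9.97. EEF1G gave 0.53 (-0.01 to 1.07), with the acute LDOPA array 2F at 9.70 below the other 3 at 10.87 to 11.08, and 0.21 without that array.

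EIF6, which keeps the large subunit from joining early, read 8.28, 7.67, 7.80 and 8.09 after acute and 8.58, 8.69, 8.59 and 8.34 after chronic LDOPA in DRD2, a difference of 0.56 (0.10 to 1.02, adjusted p = 0.733). EIF2B4, the delta subunit of the eIF2 exchange factor, had the largest value below 0, with 9.31, 8.76, 8.33 and 8.55 after acute and 7.12, 8.44, 8.21 and 7.58 after chronic LDOPA. The log2 difference was -1.06 (-1.75 to -0.37, adjusted p = 0.64), and -0.12 and -0.97 within BeadChips 3 and 4. Array 1D taken alone lay inside the acute range. EIF3S5 (a probe of Eif3f) gave 0.33 (0.01 to 0.65) and EIF3F itself 0.20 (-0.18 to 0.57); these probes correlated at 0.81 over the samples.

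Probes of the same gene differed in how closely they followed each other. For 22 pairs of probes of the same gene, both detected on all arrays, the correlation over the 22 samples had a median of 0.31 and ranged from 0.02 to 0.96. It was 0.96 for EEF2 probes 1690070 and 4560424, 0.95 for EIF3G and EIF3S4 (both Eif3g) and 0.86 for EEF1A1 probes 1690689 and 6280626. It was 0.07 for EIF4G2 probes 2810156 and 6520484 and 0.02 for EIF4A2 probes 780156 and 4850747. These points share arrays and normalization, so they are a description only. The interaction of line and treatment had 0 adjusted calls, and 5 factor probes at an unadjusted p under 0.05 (4.72%, against 5.57% of all), EEF1B2 5050056, EIF4G2 6520484 at -0.63, EIF2B4 at 1.08, EIF5 5490114 at 0.96 and EIF4E2 5810762 at -0.76.

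The mRNAs known from the literature as TOP mRNAs (8 of 9 listed genes on the array by that symbol, 17 probes tested) gave medians of 0.15 and 0.00 between the lines after acute and chronic LDOPA, -0.03 in DRD1A and 0.03 in DRD2 between treatments, beside the medians of all probes given above. None of these probes was called. In the acute comparison 4 (23.5%) were higher at an unadjusted p under 0.05, against 3.76% of all probes, and 0 were lower, against 5.34%. In DRD2 4 (23.5%) were higher, against 2.97% of all, and 0 were lower, against 3.31%. Over all probes detected on every array, 9.55% were higher and 5.83% lower in the acute comparison, and 4.67% and 4.07% in DRD2. Of the 17 TOP probes, 11 lay above 0 and 6 below in the acute comparison, and 10 and 7 in DRD2. Both comparisons use the same 4 DRD2 acute LDOPA arrays, so these counts are not independent of each other. The probes that were higher were of EEF1A1, EEF1B2 and EEF1D, and the EEF1A1 probe, 4640142, matched no RefSeq transcript.

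The remaining factors are given by role. EIF2B3, the gamma subunit of the eIF2 exchange factor, varied widely, from 7.37 to 10.23 over the single arrays, and gave -0.72 for DRD1A against DRD2 after chronic LDOPA (-1.90 to 0.46). EIF2B4 gave 0.60 in the same comparison (-0.01 to 1.22) and -0.48 after acute LDOPA. EIF1AD probe 7000468, of an eIF1A domain protein, gave 0.60 after chronic LDOPA (0.01 to 1.19, adjusted p = 0.798), and EIF5A2, the paralog of EIF5A, gave -0.28 (-0.54 to -0.03, adjusted p = 0.75). The other EIF1AD probe, 4730021, averaged 7.79 in DRD1A and 7.82 in DRD2 after chronic LDOPA. For the gamma subunit of eIF2, EIF2S3X lay within 0.16 of 0 in each of the 4 comparisons.

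In the cap binding group EIF4EBP1, an inhibitor of eIF4E, was detected on 3 arrays and EIF4EBP2, the main form in brain, on 20. EIF4EBP2 gave 0.42 and 0.34 between the lines after acute and chronic LDOPA and 0.15 and 0.23 between treatments in DRD1A and DRD2, with each interval containing 0. The scaffold EIF4G1 gave 0.16, -0.27, -0.17 and 0.27 in the same order, and the helicase cofactor EIF4H gave 0.21, 0.02, -0.16 and 0.03. EIF4E3 probe 130056, of a divergent cap binding protein, gave -0.49 in DRD1A (-1.32 to 0.34) and -0.75 in DRD2 (-1.97 to 0.48) between treatments. Its probe 4810041 gave 0.38 in DRD1A, on the other side of 0, and lay below 0 in DRD2. Probe 870148 lay below 0 in both lines. EIF4EL3 (Eif4e2) gave 0.62 in DRD2 between treatments (-0.39 to 1.62).

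Within eIF3 the WD repeat subunit EIF3I gave 0.19, 0.14, 0.14 and 0.20 with probe 1190082, and EIF3F, a subunit of the MPN fold, gave 0.19, 0.11, 0.12 and 0.20. All of these lay above 0 with intervals that contained 0. With median centering the DRD1A values between treatments became 0.67 for EIF3I probe 1190082, with an adjusted p of 0.0257 by limma, and 0.65 for EIF3F (adjusted p = 0.136). EIF3S4 (Eif3g), an RNA binding subunit, gave 0.57 after chronic LDOPA between the lines (0.00 to 1.14), beside 0.49 for EIF3G, the other probe of that gene. EIF3B, the scaffold of the complex, gave -0.78 for the interaction with probe 1850685 (-1.76 to 0.20). EIF3S6 (Eif3e) was detected on 0 arrays and lay within 0.04 of 0 in each comparison.

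The wider pathway was read from further gene lists. Of 10 tested probes of the termination and recycling factors, 25 of the mTORC1 pathway, 20 of poly(A) and cap regulators and 14 of the eIF2 alpha phosphatases and ATF4 targets, 0 were called in any comparison. The mTORC1 list had a median of -0.07 in DRD1A between treatments, with 20 of 25 probes below 0 and 3 (12%) lower at an unadjusted p under 0.05, against 4.11% of all probes. Over all probes detected on every array, 9.1% were lower at this threshold. Median centering moved the median of those probes from -0.01 to 0.28 in this comparison, and the genes of these lists were not examined under it. PDCD4, an inhibitor of eIF4A, gave -0.37 with probe 5310600 (SE 0.09, adjusted p = 0.215) and -0.81 with probe 3990630 (SE 0.28, adjusted p = 0.433). RPS6KB1, the S6 kinase that phosphorylates eIF4B and PDCD4, gave -0.53 with probe 2490397 (SE 0.18, adjusted p = 0.404). ETF1, the release factor eRF1, gave 0.89 (SE 0.26, adjusted p = 0.331). DDIT4, an inhibitor of mTORC1, gave -0.94 for DRD1A against DRD2 after acute LDOPA (SE 0.24, adjusted p = 0.145) and -0.60 after chronic LDOPA. ATF4, the factor translated when eIF2 alpha is phosphorylated, gave 0.48 after acute LDOPA between the lines (SE 0.18, adjusted p = 0.388).

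Markers of cell types were measured beside the factors. The summed signal of 5 probes of cortical excitatory neuron markers lay at 11.15 to 11.81 on the log2 scale in DRD1A acute LDOPA and at 9.89 to 10.93 in DRD2 acute LDOPA, with 5 of 5 probes above 0. That of 15 oligodendrocyte probes lay at 11.76 to 12.99 and 12.53 to 13.00, with 12 of 15 probes below 0. That of the 5 cholinergic probes lay at 9.38 to 9.79 and 9.45 to 9.73. That of 12 probes of markers shared by all MSNs lay at 13.16 to 13.65 and 13.68 to 14.12, with 9 of 12 probes below 0. Their part in the factor values of the line comparison was not tested. Between treatments within DRD1A these sums overlapped, at 10.96 to 11.56 for the cortical markers and 11.94 to 12.90 for the oligodendrocyte markers after chronic LDOPA. In DRD2 the cortical sum lay at 9.89 to 10.93 after acute and 10.23 to 11.47 after chronic LDOPA, with 4 of 5 probes above 0. The astrocyte sum, over 11 probes, lay at 11.38 to 11.85 and 11.57 to 12.61, with 6 of 11 probes above 0, and the oligodendrocyte sum at 12.53 to 13.00 and 12.21 to 13.65. Their part in the DRD2 values was not tested either.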

How the data were processed

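Illumina Mouse WG-6 BeadChips were read by the authors in GenomeStudio, and the deposited probe report gives for each array the mean bead intensity, its bead standard error, the number of beads and a detection p-value. RNA (1 ng) had been amplified with the WT-Ovation Pico system, which can distort low amounts. A deposited series table holds the authors' quantile normalized log2 values, with all column medians at 7.12. It was matched to the report by its values (99.9% of rows) and used as an alternative; the methods name quantile normalization and then median centering, in GeneSpring. In the report, 4 columns belong to no listed sample and were not used.

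Intensities were quantile normalized, floored at 1 and taken to log2. Probes above the 20th percentile on all arrays of a group were kept, and group means were compared with limma 3.58.1 in R 4.3.3, without a block, with Benjamini-Hochberg adjustment over all kept probes (0.05; 19.4 total degrees of freedom). The median number of beads per factor probe was 29 to 124 and no read depth applies. The scripts were tested on simulated data. The pair of arrays averaged was chosen by its likeness; the written plan named array 4A in place of 3A through another BeadChip numbering, and that pairing is given as an alternative chosen after seeing the data. The labels give 8 DRD1A chronic and 4 DRD2 acute LDOPA arrays where the study's text gives 4 and 8 animals; the labels were used. Only the methods, not the labels, say that arrays came from single mice.

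Named genes were the called probes, the 5 smallest p-values and 6 largest differences of each comparison, a fixed list of core factors by their probe of highest mean signal, and the eIF3 probes of highest and lowest signal; other probes are named where they differ, and genes of the wider lists were chosen after their values were seen. Members and lists were chosen with earlier results of these data known. Alternatives were separate arrays, a BeadChip block, no BeadChip 1, median centering, the authors' values, normexp, 2 other filters, the methods' analysis of variance with Tukey's test, and leaving out each array.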

Additional observations from a re-analysis of the deposited data

Results flagged for a closer look

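Of 147 sets of values (49 named probes in the 3 groups of 4 to 8 samples), 21 held a sample set apart from its group by Dixon's criterion, which chance alone gives in about 1 set in 20. On DRD1A acute LDOPA array 4B the values apart were EIF2AK1 at 9.23, EIF2B5 at 9.53 (1450468) and 9.51 (2370187), EIF4EBP1 at 7.24 and EIF2B3, the lowest of its group, at 7.37. In the same group EEF1B2 5050056 was 9.14 on 1C, EIF3S4 was 9.91 on 1F and EIF4E2 5810762 was 8.78 on 2D. On DRD2 acute LDOPA array 4E, EIF2AK2 was 10.56 where the other 3 arrays were at most 7.15, EIF3I 620639 was 13.06 and EIF5A2 was 7.83. On array 2F of that group EEF1G was lowest at 9.70, and EIF4G1 4730136 and EIF4EL3 were highest at 8.18 and 8.89. Both EIF2B5 probes were lowest on array 2C, at 7.45 (1450468) and 7.18 (2370187). In DRD1A chronic LDOPA, array 4F was highest for EEF1A1 6280626 at 11.69, EIF2AK1 at 9.44 and EIF5B 7050309 at 8.25, array 3D for EIF2B1 2510079 at 8.17 and array 2A for EIF4E3 130056 at 9.91.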

How the results depend on the processing

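Of the 6 counts of called factor probes, those for DRD1A against DRD2 after chronic LDOPA, chronic against acute LDOPA in DRD2 and the interaction were 0 under every alternative run. Median centering gave 2 calls for chronic against acute LDOPA in DRD1A (EIF3D and EIF3I probe 1190082), 5 in the F test, and a factor median of 0.12 in place of -0.06 for DRD1A; EIF5A 6040086, EIF4A2 4850747 and EIF4G2 6520484 then read 0.07, 0.03 and 0.12 in place of values below 0. That scaling moved the median of all probes detected on every array from -0.01 to 0.28 in this comparison, and that of the factors among them from -0.05 to 0.36. Normexp correction gave 1 call for DRD1A against DRD2 after acute LDOPA (EEF1B2 5050056, 2.04, adjusted p = 0.0488) and 1 in the F test. The detection filter, which tested fewer probes (12262), gave 1 call there (EIF5 5490114, adjusted p = 0.0356) and 2 in the F test. The F test called 2 factor probes with 23 separate arrays and 1 with arrays 1D and 4A averaged. Leaving out 1 array at a time gave 0 to 1 calls after acute LDOPA (without 4E) and 0 to 1 in the F test (without 1C, EEF1B2; without 2D, EEF1A2). The causes were not tested. Leaving out 1 array at a time, the factor median after acute LDOPA was 0.08 (without 2F) to 0.15, and that of DRD2 -0.01 (without 3F) to 0.05. No paired analysis was possible because the labels give no replicate numbers shared by the groups; with BeadChip as a block the adjusted p of the F test was 0.126 for EEF1A2 and 0.205 for EEF1B2. Dim signals limit EIF2AK2 to EIF2AK4, EIF2C3, EIF4EBP1 and EIF4EBP3, each detected on 8 or fewer of 23 arrays.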
